A study of Mus musculus with 8 samples.

Results

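Colon tumors of mice were compared between 2 genotypes within the tumors that had little Axin2 mRNA, 3 carrying the transgene VP16LXRa against 3 carrying the transgene VP16. These 6 tumors, of 8 in the series, were chosen by a measured value, an intensity of the brightest Axin2 probe below 1200 units in the authors' processed table. Total RNA of each tumor was measured on a 1-colour Illumina BeadChip with 25697 probes. Mice of the VP16LXRa group (replicates 6, 7 and 8 here) carried a transgene for the VP16 transcriptional activation domain joined to the liver X receptor alpha. Mice of the VP16 group (replicates 2, 3 and 4 here) carried the same activation domain alone and served as the control. Animals of both groups were heterozygous for the Apc min allele, which truncates the Wnt pathway inhibitor Apc, were 8 months old and came from a mixed strain of C57BL/6J and FVBN. The labels name no promoter for the transgenes. In mouse lines known under these names it is that of villin, which is active in the intestinal epithelium.

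Axin2 is a feedback inhibitor of Wnt signalling whose transcription β-catenin raises, and its level is widely read as a measure of pathway activity in intestinal tumors. Its processed intensity was 407.4, 451.8 and 512.6 in VP16LXRa replicates 6, 7 and 8, against 550.4, 349.2 and 371.5 in VP16 replicates 2, 3 and 4. The tumor nearest to the limit from below was VP16 replicate 2 with 550.4, and the nearest from above was VP16 replicate 1 with 2588. The remaining tumor, VP16LXRa replicate 5, had 2952. These values chose the tumors and are a description. Of 21 Wnt target genes on the array, 12 were detected on fewer than 3 of the 6 arrays, among them Lgr5, Notum, Nkd1, Sp5 and Lef1. Over the whole array, 9136 of 18138 gene symbols had a probe detected on 3 or more, so the Wnt count is not far from that share. Colonocyte markers were detected in nearly full number, 20 of 21. The word tumor is used here for every sample. The share of tumor tissue in each is not known from these markers and was not tested.

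**Figure D1:**
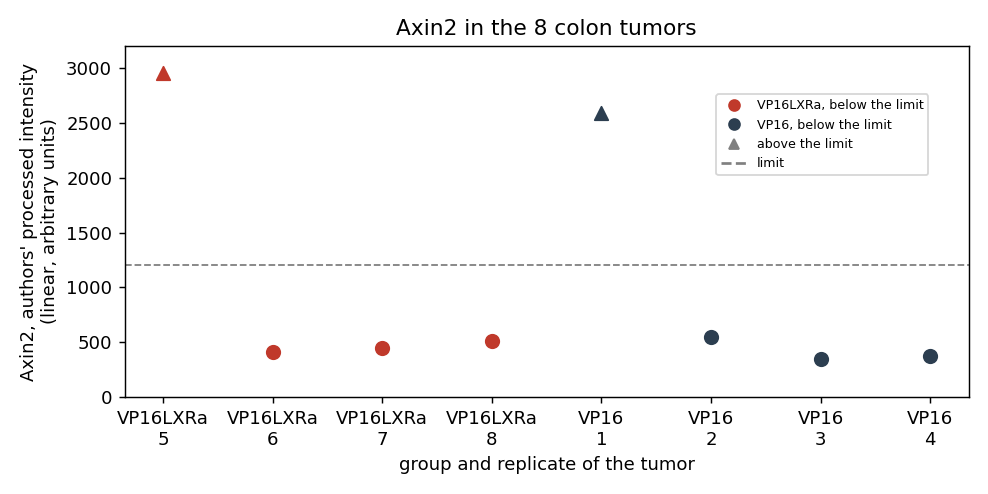
Authors' processed Axin2 intensity (linear, arbitrary units) of each tumor by group and replicate. The 6 circles, from 349.2 to 550.4, are the tumors compared, and the 2 triangles at 2952 and 2588 lie above the dashed limit of 1200.

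Liver X receptors are nuclear receptors that sense oxidised cholesterol and bind DNA with the retinoid X receptor. In enterocytes they are known to raise transcription of sterol exporters, and in many tissues that of enzymes which make and remodel fatty acids. Joining a receptor to the VP16 domain makes it active without its ligand. The comparison therefore asks how an active receptor changes gene expression in tumors of like Axin2 level.

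Detected probes numbered 11469 to 12257 per array. The 6 arrays were normalized together without the other 2, and each probe's level is given as log2 intensity after that normalization. Across probes, VP16 replicate 4 correlated with the other 5 arrays at 0.938 to 0.948, and those 5 among themselves at 0.951 to 0.975. It differed by more than 1 log2 unit from the mean of the others at 816 of 11916 tested probes, against 242 to 458 probes for each of the other arrays. It was low in smooth muscle genes (Des 8.39 against a mean of 12.40) and in the goblet and Paneth cell product Ang4 (11.06, against 14.66 to 15.13 in the others), and high in interferon-induced genes (Indo 12.53 against 7.00, Cxcl9 11.08 against 7.57). For several lists that move with this array, values without it are given below too. The labels do not say whether each tumor is from another mouse. A p-value here sets the group difference against the spread between these samples, which need not be that between mice. Precision is limited by having 3 arrays a group. In RNA of whole tumors, fewer cells of a type and less RNA per cell cannot be told apart.

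Among the 11916 probes tested, 4 passed limma's test at an adjusted p under 0.05 (0.0336%), 2 higher (0.0168%) and 2 lower (0.0168%) in VP16LXRa tumors. Unadjusted p was under 0.05 for 385 probes (3.23%), 200 higher (1.68%) and 185 lower (1.55%). The groups did not overlap at 959 probes (8.05%), at 4.04% with VP16LXRa higher and at 4.01% with it lower. Of the 9136 tested genes, each at its brightest probe, 52.6% were higher and 47.4% lower in VP16LXRa tumors, with a median log2 difference of 0.01. In the text that follows, values of single tumors run in the order VP16LXRa 6, 7, 8 and VP16 2, 3, 4, and differences are VP16LXRa minus VP16.

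**Figure D2:**
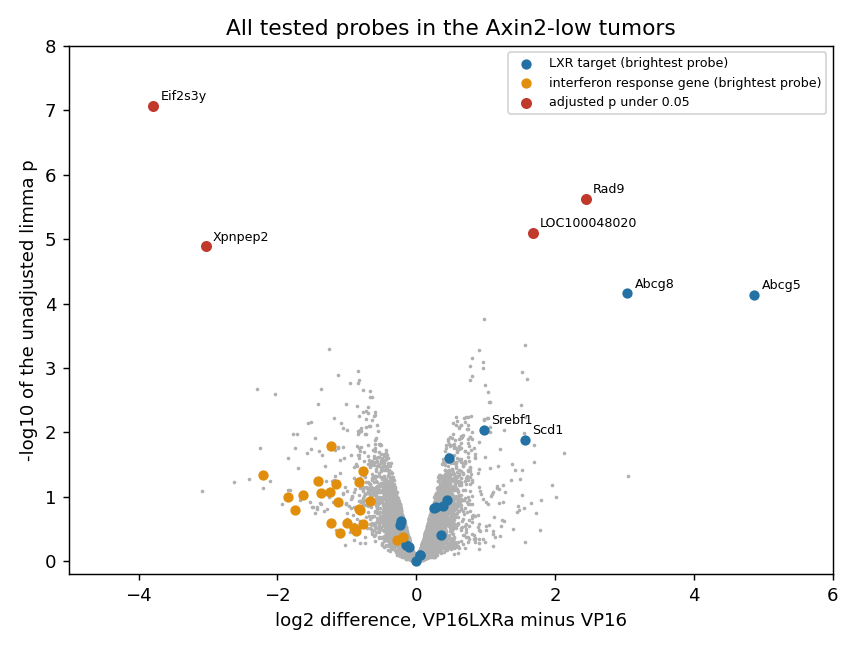
Log2 difference (VP16LXRa minus VP16, x axis) and −log10 of the unadjusted limma p (y axis) of each tested probe in the 6 tumors, with the brightest probes of LXR targets in blue, those of interferon response genes in orange and the 4 probes past the adjusted threshold in red. All orange points lie left of 0, while Abcg5 and Abcg8 stand farthest right among the blue points.

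Eif2s3y, a translation initiation factor gene on the Y chromosome, had levels of 5.37, 5.29 and 5.51 in VP16LXRa tumors, against 9.18, 8.99 and 9.37 in VP16 tumors. It fell by 3.79 on the log2 scale (SE 0.16, adjusted p = 0.001), with a detected signal on 2 of the 3 VP16LXRa arrays and on all 3 VP16 arrays. The other tested Y-linked genes had smaller differences. Ddx3y, an RNA helicase gene, differed by 0.30 (SE 0.20), and the histone demethylase genes Uty and Jarid1d (now Kdm5d) by -0.32 (SE 0.24) and -0.22 (SE 0.21). Its X-linked copy Eif2s3x differed by -0.20 (SE 0.17), and Xist, the RNA that silences an X chromosome in females, was detected on too few arrays for a test at either probe.

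Xpnpep2, an X-linked gene for a membrane-bound aminopeptidase, stood at 6.75, 6.01 and 5.74 in VP16LXRa tumors, against 9.25, 9.34 and 9.0 in VP16 tumors. It fell by 3.03 (SE 0.28, adjusted p = 0.0385), and the groups lay more than 2 log2 units apart. A second Xpnpep2 probe, seen on no VP16LXRa and on 2 VP16 arrays, was not tested, with means of 4.99 and 5.37 in that order.

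Rad9 (now Rad9a), on chromosome 19, encodes a subunit of the clamp that signals DNA damage. At its called probe the levels were 7.97, 8.07 and 8.25 in VP16LXRa tumors, against 5.88, 5.48 and 5.60 in VP16 tumors. This probe rose by 2.44 (SE 0.17, adjusted p = 0.014). The probes of the gene disagreed, since another detected on every array differed by -0.01 (SE 0.24), and the remaining one was detected on no array.

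LOC100048020, a locus with no assigned function in the files, had levels of 8.66, 8.65 and 8.63 in VP16LXRa tumors, against 7.03, 7.04 and 6.83 in VP16 tumors. It rose by 1.68 (SE 0.14, adjusted p = 0.0314). Fewer probes passed with any array left out. When each array was left out in turn, between 1 and 3 probes passed. Eif2s3y passed each time, while Rad9 passed only without VP16 replicate 2, Xpnpep2 only without VP16LXRa replicate 6, and LOC100048020 in none of these fits.

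Abcg5 and Abcg8 form the heterodimer that pumps sterols from enterocytes back into the gut lumen, and both are textbook LXR targets. They showed the largest positive differences among the named genes without passing the threshold over all probes. Their starts on chromosome 17 lie close together on opposite strands, so that the promoter of one reaches into that of the other. The Abcg5 promoter is shown because both genes stood apart by genotype (RefSeq, GRCm38.p6, chr17:84682962-84683261, minus strand, 250 bases before to 50 after the start). Capitals mark the 209 bases that also lie in the window of an annotated Abcg8 start.
Abcg5: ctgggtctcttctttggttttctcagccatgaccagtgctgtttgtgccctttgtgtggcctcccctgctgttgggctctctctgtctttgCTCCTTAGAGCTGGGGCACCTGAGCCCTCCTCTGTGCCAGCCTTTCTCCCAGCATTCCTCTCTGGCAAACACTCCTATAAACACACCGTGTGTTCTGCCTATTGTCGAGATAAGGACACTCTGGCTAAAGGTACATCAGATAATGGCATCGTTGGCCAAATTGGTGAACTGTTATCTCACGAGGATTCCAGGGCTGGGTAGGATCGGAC
The letters AGGTCA, the unit that is repeated in sites of LXR pairs, were not in this window on either strand. Of the 12 tested LXR targets with an entry in the promoter table, 1 (Lpin1) had them, against 18.1% of all 27025 genes in it.

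Abcg5 had levels of 11.45, 11.35 and 10.12 in VP16LXRa tumors, against 6.25, 7.07 and 4.99 in VP16 tumors. The log2 difference was 4.87 (SE 0.58, unadjusted p = 7.28e-05, adjusted p = 0.145). The lowest VP16LXRa tumor stood more than 3 log2 units above the highest VP16 tumor, and 1 VP16 tumor had no detected signal. With an offset of 50 in place of 16 it passed the threshold (4.26, adjusted p = 0.0439). For Abcg8 the levels were 7.85, 8.42 and 7.23 in VP16LXRa tumors, against 5.33, 4.61 and 4.44 in VP16 tumors. As no VP16 tumor had a detected signal, Abcg8 was at least 5.55-fold higher in VP16LXRa tumors, taking the lowest detected signal of each VP16 array, or the probe's own where that was higher, as the bound (adjusted p = 0.145). Abcg8 entered the test through the VP16LXRa arrays alone.

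The lipogenic targets followed with smaller differences. Scd1, a desaturase that puts a double bond into saturated fatty acids, had 10.29, 11.21 and 10.62 in VP16LXRa tumors, against 9.85, 8.12 and 9.47 in VP16 tumors (difference 1.56, SE 0.47, unadjusted p = 0.013). Srebf1, which encodes SREBP-1, the activator of lipogenic genes, had 6.65, 5.89 and 6.57 in VP16LXRa tumors, against 5.04, 5.44 and 5.72 in VP16 tumors (0.97, SE 0.27, unadjusted p = 0.00905). Srebf1 was dim, with a detected signal on 2 of the 3 VP16 arrays, where the lowest detected levels per array were 5.21 to 5.43. Without background correction its difference was 0.33. Lpcat3, which puts polyunsaturated chains into phospholipids, had 11.12, 11.31 and 11.52 in VP16LXRa tumors, against 10.87, 10.74 and 10.95 in VP16 tumors (0.47, SE 0.16, unadjusted p = 0.0253), with a second probe at 0.74 (SE 0.20). The groups did not overlap for any of these 3 genes, and no adjusted p was below 0.999.

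**Figure D3:**
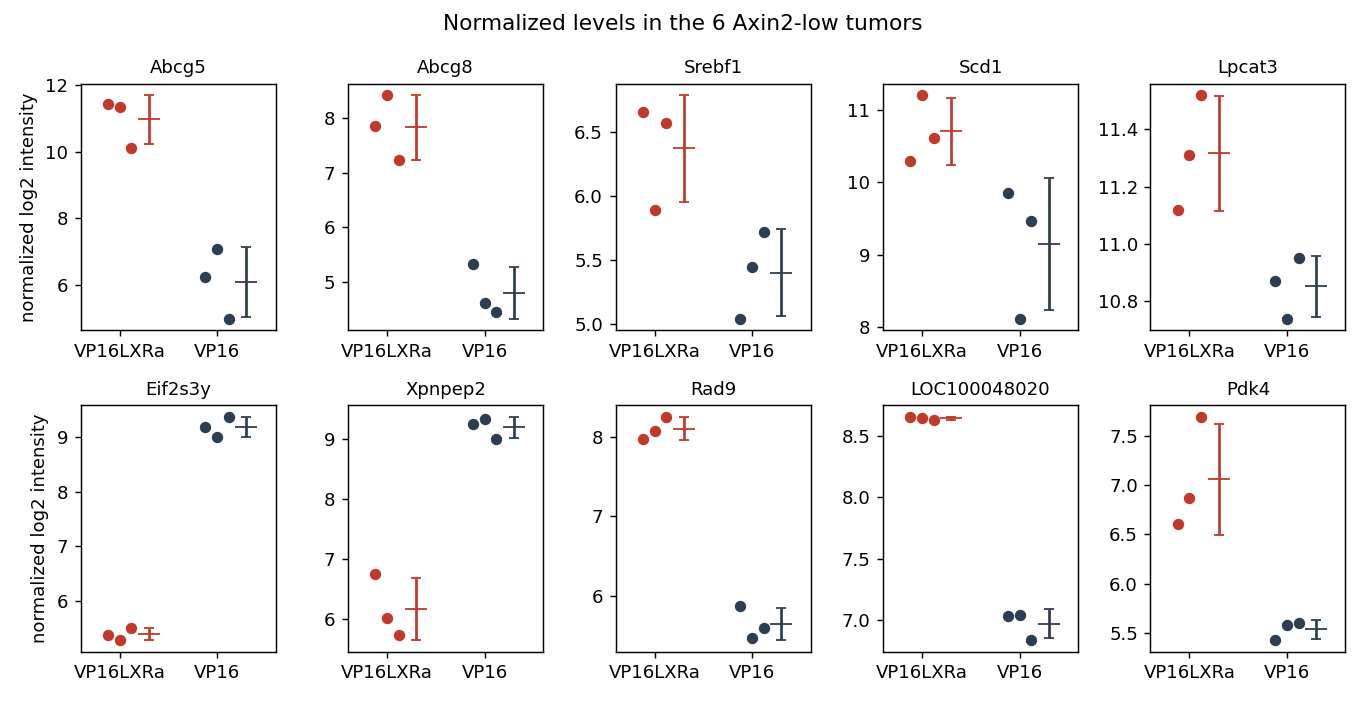
Normalized log2 intensity of single tumors (points, 3 per group, VP16LXRa left and VP16 right) with the mean and SD beside them, each panel on its own scale. The groups do not overlap in any of the 10 panels, and the gap is widest for Abcg5, Eif2s3y and Xpnpep2.

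Of 26 LXR targets 25 were on the array and 17 could be tested. Positive differences were found for 12 and negative ones for 5, against 52.6% positive among all genes. The groups did not overlap, with VP16LXRa higher, for 7 of the 17 (4.5% of all genes), and for none with VP16LXRa lower (3.57%). Unadjusted p was under 0.05 for 5, all higher (1.78% of all genes, beside 1.44% lower). The median log2 difference was 0.28 with quartiles of 0 and 0.47, beside a median of 0.01 and quartiles of -0.12 and 0.15 over all genes, and it is unchanged with Abcg8 at its bound. Without Abcg8, which passed the detection filter through 1 group alone, 11 of 16 were higher, 6 did not overlap, 4 had an unadjusted p under 0.05 and the median was 0.27. Among the 14 members detected on all 6 arrays 9 were higher and 4 did not overlap, with a median of 0.16. These counts describe the members that passed the filter and not the whole list. The mean of the list's centred levels was 0.35, 0.46 and 0.25 in VP16LXRa tumors, against -0.29, -0.36 and -0.41 in VP16 tumors. Leaving out each array in turn gave medians of 0.19 to 0.29.

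Smpdl3a, a phosphodiesterase, and Stard4, a cholesterol carrier, were the other targets without overlap, at 0.38 (SE 0.23) and 0.26 (SE 0.16). Over all 8 tumors Smpdl3a changed sign, to -0.11. The apolipoprotein gene Apoe differed by 0.45 (SE 0.25), the lipase gene Lpl by 0.35 (SE 0.39) and the desaturase gene Scd2 by 0.28 (SE 0.17), each with overlapping groups. Pltp and Abca7, both concerned with phospholipid transport, stood at 0.06 each. Negative values were found for the phagocytic receptor Mertk (-0.23, SE 0.19), the glucose-responsive factor Mlxipl (-0.22, SE 0.17), the ubiquitin ligase Rnf145 (-0.14, SE 0.23) and the phosphatidate phosphatase Lpin1 (-0.10, SE 0.19). The cholesterol exporters Abca1 and Abcg1, together with Fasn, Mylip, Apoc1, Arl4c, Cd5l and Cyp7a1, were detected on too few arrays to be tested.

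The receptor genes themselves overlapped. Nr1h3, which encodes LXRα, had 7.58, 8.88 and 7.82 in VP16LXRa tumors, against 8.28, 7.88 and 8.13 in VP16 tumors, a difference of 0.00 (95% interval -0.82 to 0.81). A match of the transgene to the probe was not examined, and the value is no check of the genotype. The gene of LXRβ, Nr1h2, stood at a difference of -0.03 (95% interval -0.37 to 0.32).

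The list of fatty acid synthesis and desaturation shares the tested genes Srebf1, Scd1, Scd2 and Mlxipl with the LXR targets, so it is not a separate result. Of 16 tested members 10 were higher and 6 lower (52.6% and 47.4% of all genes), with a median of 0.14. The groups did not overlap for 4, all higher (4.5% of all genes, beside 3.57% lower). Besides Srebf1 and Scd1 the groups separated for Acsl3, which activates fatty acids, and for malic enzyme 1 (listed as Mod1), which supplies NADPH. Acsl3 had 10.94, 10.63 and 10.70 in VP16LXRa tumors, against 10.27, 10.29 and 9.57 in VP16 tumors (0.71, SE 0.23). Its other tested probes differed less, by 0.47 and 0.17. Mod1 had 5.73, 6.51 and 6.57 in VP16LXRa tumors, against 5.64, 5.38 and 5.68 in VP16 tumors (0.70, SE 0.26).

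Cholesterol synthesis and uptake genes showed no common direction, with 8 of 20 higher and a median of -0.03. The epoxidase gene Sqle was lower without overlap (-0.40, SE 0.18). Among 18 genes of fatty acid oxidation and ketogenesis 12 were higher, with a median of 0.08. Pdk4, the kinase that restrains entry of pyruvate into mitochondrial oxidation, led them with 6.61, 6.87 and 7.70 in VP16LXRa tumors, against 5.42, 5.58 and 5.60 in VP16 tumors (1.53, SE 0.29, adjusted p = 0.845). Of 5 bile acid genes tested, the exporter Abcc3 was lower without overlap (-0.46, SE 0.20).

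Further genes with large differences are named by rank, as the largest with an unadjusted p under 0.01 and no overlap, so that their separation comes from the choice. Higher in VP16LXRa tumors were Psmc3ip, a recombination factor (1.56, SE 0.25), B3galt6, which builds proteoglycan linkers (1.57, SE 0.40), Eraf (now Ahsp), a haemoglobin chaperone (1.51, SE 0.35), and the secreted ribonuclease Rnase4 (1.27, SE 0.35). Also higher were the transcription factors Rhox5 and Foxq1 (both 1.07), platelet factor 4 (listed as Cxcl4, 1.07), the calcium-binding protein genes Tesc (1.05) and Anxa4 (1.04), and the sialyltransferase gene St6galnac4 (1.02). Probes disagreed for St6galnac4, where others stood at 0.98 and -0.66. A second Rnase4 probe stood at 0.62. No adjusted p in this group was below 0.615, the value of Psmc3ip.

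Lower in VP16LXRa tumors was Pcdh17, a cell adhesion protocadherin, with 7.58, 6.67 and 7.24, against 10.18, 9.80 and 8.38 in VP16 tumors (-2.29, SE 0.48). The histone gene H2afj (-2.04, SE 0.44), the interferon-inducible Slfn4 (-1.56, SE 0.41), the cohesin subunit Rec8 (-1.51, SE 0.40) and the small GTPase Rnd3 (-1.41, SE 0.33) came next. Oas1b, an oligoadenylate synthetase gene, was seen on no VP16LXRa array and on all 3 VP16 arrays and was at least 1.59-fold lower. The list closed with the viral restriction factor Bst2 (-1.13), Ly6g6c (-1.09), Abhd1 (-1.06), the glutathione transferase Gstp2 (-1.01), Adap1 (-0.96), the kinase subunit Camk2b (-0.85) and Zfp239 (-0.84). No adjusted p here was below 0.845. Gstp2, Oas1b and other members of families of similar genes may share probe targets with their relatives, which was not examined.

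Interferon response genes had lower mean levels in VP16LXRa tumors, but no member passed over all probes. All 23 tested members had negative differences, against 47.4% of all genes, with a median of -1.10 and a range of -2.21 to -0.19. The groups did not overlap for only 3 of them, Irf7, Oas2 and Ifit3 (3.57% of all genes, lower). Interferon-activated transcription factors bind elements of repeated GAAA. Promoters of Bst2 and Ifit3 are shown because they carry such letters and both genes separated the tumors (RefSeq, GRCm38.p6, chr8:71537423-71537722, minus strand, and chr19:34583279-34583578, plus strand). Capitals mark the matches to GAAANNGAAA on either strand, which overlap in Bst2.
Bst2: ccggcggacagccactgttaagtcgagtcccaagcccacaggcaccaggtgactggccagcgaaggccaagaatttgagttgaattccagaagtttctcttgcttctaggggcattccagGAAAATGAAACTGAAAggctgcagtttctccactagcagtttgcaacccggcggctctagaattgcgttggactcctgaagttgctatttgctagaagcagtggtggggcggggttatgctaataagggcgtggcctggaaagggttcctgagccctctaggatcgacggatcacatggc
Ifit3: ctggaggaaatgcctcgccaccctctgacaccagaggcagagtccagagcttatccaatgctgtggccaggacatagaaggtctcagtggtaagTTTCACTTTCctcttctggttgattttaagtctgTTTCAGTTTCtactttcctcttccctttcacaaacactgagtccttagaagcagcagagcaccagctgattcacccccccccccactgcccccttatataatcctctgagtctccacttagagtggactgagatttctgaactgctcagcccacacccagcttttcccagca
Of the 18 tested interferon response genes with a promoter in the table, 12 held GAAANNGAAA, against 3.99% of all 27025 genes.

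Irf7, a transcription factor that amplifies the response, had 7.59, 8.57 and 8.99 in VP16LXRa tumors, against 9.21, 9.58 and 10.07 in VP16 tumors (-1.23, SE 0.39, unadjusted p = 0.0164). Oas2, which activates RNA decay on viral infection, had 5.26, 8.39 and 8.53 in VP16LXRa tumors, against 8.84, 9.45 and 10.51 in VP16 tumors (-2.21, SE 0.90, unadjusted p = 0.0452). Ifit3, which belongs to a complex that binds viral RNA, had 6.38, 8.06 and 8.53 in VP16LXRa tumors, against 8.61, 8.62 and 9.99 in VP16 tumors (-1.42, SE 0.62, unadjusted p = 0.0573). Much of the size rested on 1 tumor of each group, VP16LXRa replicate 6 at the low end and VP16 replicate 4 at the high end. The mean centred level of the list was -1.57, -0.24 and 0.17 in VP16LXRa tumors, against -0.12, 0.08 and 1.68 in VP16 tumors, so the groups overlapped. Without VP16 replicate 4 the median was -0.53 with 20 of 23 members lower, and without VP16LXRa replicate 6 it was -0.56 with 23 of 23 lower.

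Antigen presentation genes, several of which interferon induces, gave a like picture. All 16 tested members were lower, with a median of -0.53. H2-T23, a nonclassical class I gene, had 11.65, 10.25 and 11.76 in VP16LXRa tumors, against 12.46, 12.68 and 13.85 in VP16 tumors (-1.78, SE 0.51, unadjusted p = 0.0107), with another probe at -3.08. H2-Q7, also nonclassical, had 9.90, 9.19 and 10.05 in VP16LXRa tumors, against 10.69, 10.42 and 12.09 in VP16 tumors (-1.35, SE 0.46). These were the only 2 members whose groups did not overlap (3.57% of all genes, lower). The class II genes H2-Eb1 (-2.10, SE 0.92) and H2-Aa (-1.38, SE 0.62) overlapped. Without VP16 replicate 4 the median was -0.03, with 10 of 16 lower.

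**Figure D4:**
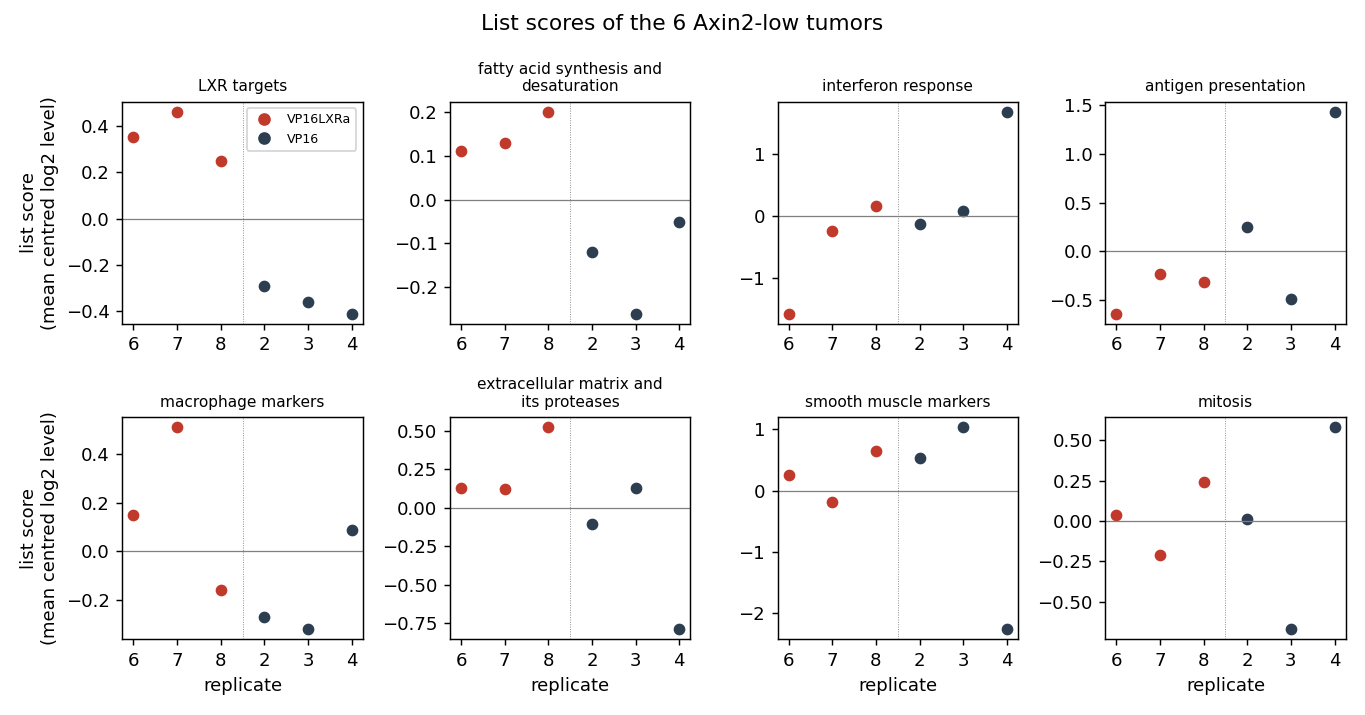
Mean centred log2 level of 8 gene lists in each tumor (points), VP16LXRa replicates 6, 7 and 8 left and VP16 replicates 2, 3 and 4 right of the dotted line, each panel on its own scale. The groups separate for LXR targets and fatty acid synthesis, while VP16 replicate 4 lies at 1.68 for interferon response genes and at -2.26 for smooth muscle markers.

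Macrophage markers were higher in VP16LXRa tumors for 10 of 14 tested members, with a median of 0.36. Unadjusted p was under 0.05 for 5, all higher (1.78% of all genes, beside 1.44% lower). Fcgr3, an immunoglobulin receptor gene, had 7.82, 7.35 and 7.38 in VP16LXRa tumors, against 6.42, 6.62 and 7.08 in VP16 tumors (0.81, SE 0.23). Cx3cr1, the fractalkine receptor gene, had 6.52, 7.39 and 6.69 in VP16LXRa tumors, against 6.09, 6.05 and 6.04 in VP16 tumors (0.81, SE 0.24). Emr1 (now Adgre1), which encodes F4/80, separated too (0.65, SE 0.20), with another probe at 0.30. The complement gene C1qb overlapped (0.71, SE 0.26). Other markers of these cells stood at or below 0, the lysosomal protein gene Cd68 at -0.21, the lipopolysaccharide receptor gene Cd14 at -0.13, the protease gene Ctss at -0.12 and the complement gene C1qa at 0.00. The summed linear intensity of the tested markers after normalization was 4120 to 7990 in VP16LXRa and 3720 to 5860 in VP16 tumors, and Cd163 and Itgam were not detected on enough arrays. Without VP16 replicate 4, 13 of 14 were higher, with a median of 0.44. Without VP16LXRa replicate 7 only 8 of 14 were higher, with a median of 0.13, and without VP16 replicate 3 also 8, with a median of 0.31. Several LXR targets, Apoe among them, are also expressed by macrophages, and the part of these cells in the LXR result was not tested.

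Extracellular matrix genes and their proteases were higher for 18 of 20 tested members, with a median of 0.47, but their mean centred level overlapped between the groups (0.12 to 0.52 in VP16LXRa tumors, -0.79 to 0.13 in VP16 tumors). The protease gene Mmp10, detected on all 3 VP16LXRa arrays and on no VP16 array, entered the test through VP16LXRa alone. Without Mmp10, 17 of 19 were higher, with a median of 0.47. The metalloproteinase inhibitor Timp1 had 7.04, 7.01 and 7.65 in VP16LXRa tumors, against 6.45, 6.68 and 6.24 in VP16 tumors (0.77, SE 0.23, unadjusted p = 0.0119). The collagenase gene Mmp13 (1.25, SE 0.57), the gelatinase gene Mmp9 (0.78, SE 0.32) and the collagen gene Col3a1 (0.72, SE 0.33) overlapped. Without VP16 replicate 4, 12 of 20 were higher with a median of 0.19. Smooth muscle markers were higher for 11 of 13, but without that array all 13 were lower, with a median of -0.48 in place of 0.49. Their summed intensity was 45700 to 73300 in VP16LXRa tumors and 10700 to 95800 in VP16 tumors. The muscle actin gene Actg2 had 14.07, 13.62 and 14.37 in VP16LXRa tumors, against 13.93, 14.53 and 10.86 in VP16 tumors.

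Colonocyte markers were higher for 11 of 20, with a median of 0.06. The groups did not overlap for 4 members with VP16LXRa higher (4.5% of all genes) and for 1 with it lower (3.57%). The lower one was the water channel Aqp8, with 12.78, 12.61 and 12.42 in VP16LXRa tumors, against 13.20, 13.18 and 12.99 in VP16 tumors (-0.52, SE 0.16, unadjusted p = 0.0153). A second Aqp8 probe stood at -0.34. The higher ones were the acute phase gene Saa1 (0.99, SE 0.34), Scnn1b (1.28, SE 0.64), Slc26a2 (0.41, SE 0.17) and Scnn1a (0.39, SE 0.19). Goblet cell markers were higher for 7 of 11, with a median of 0.16, but without VP16 replicate 4 for 5 of 11, with a median of -0.03. Paneth cell markers were higher for 5 of 7, with a median of 0.90 that ran from -0.12 to 1.72 as each array was left out. All 4 tested tuft cell markers were higher (median 0.34) and all 4 tested intestinal stem cell markers lower (median -0.33), each with overlapping groups. Wnt targets were higher for 6 of 9, with a median of 0.07. Axin2 (0.13), whose values chose the tumors, is counted among those higher. The groups did not overlap for 1 member (4.5% of all genes, higher). This was the Wnt inhibitor gene Wif1, detected on all 3 VP16LXRa arrays and on no VP16 array, so that it entered the test through VP16LXRa alone. Without Wif1, 5 of 8 were higher, with a median of 0.05. Wif1 had 5.30, 5.57 and 7.70 in VP16LXRa tumors, against 4.80, 4.68 and 4.52 in VP16 tumors, at least 1.78-fold higher. The size rested on VP16LXRa replicate 8, without which the fitted difference was 0.77 in place of 1.52. Mitosis genes had a median of 0.04 with 11 of 16 higher, and DNA replication and G1/S genes one of -0.06 with 6 of 20 higher. Both lists moved with single arrays. Without VP16 replicate 4 the mitosis median was 0.34 with 16 of 16 higher, and the replication median 0.12 with 14 of 20 higher. Without VP16 replicate 3 they were -0.27 with 1 of 16 higher and -0.15 with 7 of 20 higher. The medians of CDK inhibitors, apoptosis genes and p53 targets were -0.05, -0.06 and -0.06.

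**Figure D5:**
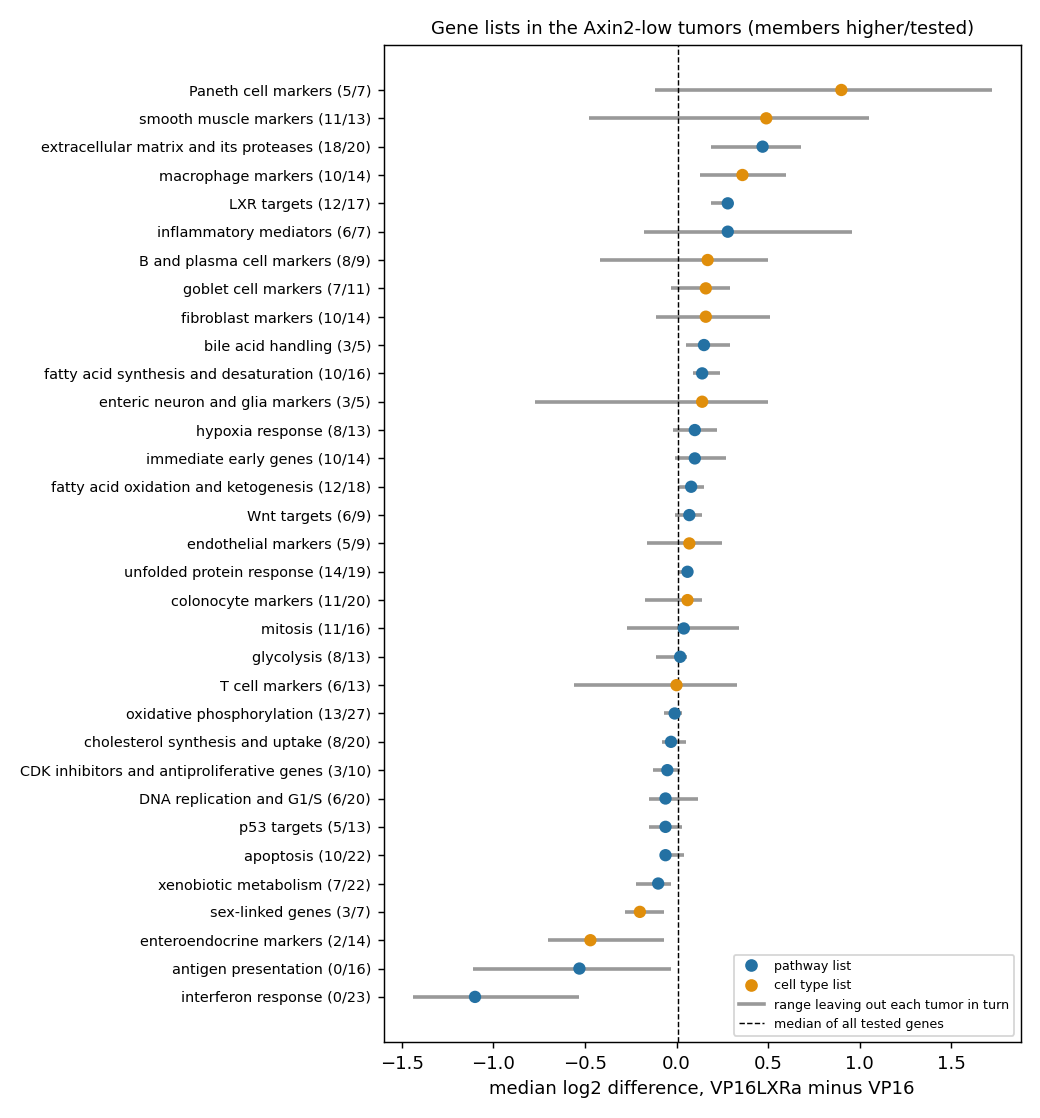
Median log2 difference (VP16LXRa minus VP16) of each gene list with at least 5 tested members, ordered by size, with the range from leaving out each tumor in turn as a grey bar and the number of members higher over those tested beside the name. LXR targets at 0.28 have a short bar from 0.19 to 0.29, whereas smooth muscle markers run from -0.48 to 1.05.

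Between the 2 tumors above the Axin2 limit, 1 of each genotype, 14 of the 17 tested LXR targets were higher and 3 lower in the VP16LXRa tumor, without replicates. No share over all genes is given for this pair. Of the 17, 9 had the same sign as in the low class and 8 the opposite one. Of the 7 without overlap in the low class, 5 had the same sign there, Abcg8 (2.66), Abcg5 (1.84), Scd1 (0.75), Srebf1 (0.70) and Lpcat3 (0.47). Smpdl3a (-1.58) and Stard4 (-0.16) had the opposite sign, as did Scd2 (-0.54). Mertk (0.14), Mlxipl (0.39), Rnf145 (0.20) and Lpin1 (0.52), negative in the low class, were positive in this pair. Of the 4 called probes, Eif2s3y (-2.38) and Rad9 (0.33) had the same sign there, and Xpnpep2 (0.13) and LOC100048020 (-0.16) the opposite one. A test of whether the genotype difference itself depended on the Axin2 class, with each lone tumor assumed to vary like the others, gave adjusted p = 0.368 for Eif2s3y, 0.116 for Rad9, 0.155 for Xpnpep2 and 0.0974 for LOC100048020. The same test called 24 of 11875 probes (0.202%). At all 24 the VP16LXRa tumor of the high class lay below the VP16 one, and at 12 of them its probe had no detected signal, while the difference within the low class was at most 0.72 in size. They included 5 colonocyte list members and 2 goblet list members.

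With all 8 tumors in the fit, 1 probe passed, that of Eif2s3y (0.00842%), and 200 had an unadjusted p under 0.05 (1.68%). The median SD between tumors of 1 group was 0.255 log2 units per probe over the 6 tumors, against 0.343 over the 8. Rad9 differed by 1.93 (SE 0.58), Xpnpep2 by -2.24 (SE 0.60) and LOC100048020 by 1.22 (SE 0.48) over the 8, none past the threshold. Both fits share 6 arrays and are not independent.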

How the data were processed

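Per the file headers, the main deposited table gives every probe a bead summary signal (a linear intensity, not normalized) and a detection p-value on each array. The authors' processed intensity of these probes is in another deposited table, for which the sources used here give no steps. It served to choose the tumors and as an alternative. The submitters' processing notes name GenomeStudio. The labels' protocols name QIAzol extraction and an Ambion TotalPrep amplification and biotinylation kit. No source used here states the genome build behind the probes.

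The 6 arrays alone went through neqc of limma 3.58.1 in R 4.3.3: normexp background correction that uses the detection p-value, quantile normalization, and log2 with an offset of 16, which shrinks differences of dim probes. Tested were the 11916 probes whose detection p-value was below 0.01 on 3 or more of the 6. The two-sided test was limma's (lmFit, eBayes), and p-values were adjusted over all tested probes by Benjamini and Hochberg's method, with 0.05 as the threshold. Genes in lists were taken at their brightest tested probe. No further adjustment was made over lists, and a list's mean centred level averages its members, each centred on its own mean of 6 arrays. An exact permutation test of 3 against 3 cannot go below p = 0.1 and was not used. The class test and the 8-array fit used neqc on all 8 arrays and probes detected on at least 4.

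The tumors, the 44 gene lists and the named genes were chosen with earlier results of these data known. Named were every probe past the threshold, up to 15 genes per direction by size among probes with unadjusted p under 0.01 and no overlap (clone and locus names left out), every tested LXR target, up to 4 members of other lists by smallest p, and tested sex-linked and blood genes. Some genes that this rule names are not reported here. Genes given to describe VP16 replicate 4 and the high Axin2 pair were picked with their values in view. Genes are named as in the array file, and 17213 of its 18138 symbols matched the GRCm38.p6 annotation. No 2 arrays held identical values. Slides and scans are not named in the files, and batches were not examined. The fit was tested on simulated data. Alternatives were other background corrections, normalizations, offsets, filters and priors, array weights, leaving out each array, and all 8 arrays with and without the Axin2 class.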

Additional observations from a re-analysis of the deposited data

Results flagged for a closer look

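The difference between the genotypes differed between the low and the high Axin2 class at 24 of 11875 probes by limma's test of the difference itself, and unadjusted p was under 0.05 for 637. The high class holds 1 tumor of each genotype, so each call rests on a pair of single arrays.

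For 1810010M01Rik (now Zg16), a goblet cell lectin gene, the fitted difference between classes was 10.70 log2 units (adjusted p = 5.42e-05). Its probe had no detected signal in VP16LXRa replicate 5, so the size is a bound, at least 9.69 with that tumor set to the lowest detected level of its array, 5.34. It had 15.01, 15.22 and 15.09 in the low VP16LXRa tumors and 4.34 in VP16LXRa replicate 5, against 15.26, 15.26 and 15.47 in the low VP16 tumors and 15.26 in VP16 replicate 1. Thus 1 array was low.

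For Aqp8, the colonocyte water channel gene, the fitted difference between classes was 4.10 (adjusted p = 0.0097). It too had no detected signal in VP16LXRa replicate 5, and the difference was at least 3.30 by the same bound. Its levels were 12.78, 12.61 and 12.41 in the low VP16LXRa tumors and 4.54 in VP16LXRa replicate 5, against 13.20, 13.17 and 13.00 in the low VP16 tumors and 9.17 in VP16 replicate 1. Here both high tumors were low, and VP16LXRa replicate 5 more so.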

How the results depend on the processing

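The 4 probes called within the Axin2-low tumors were the same 4 without background correction, with cyclic loess, with median scaling, on the authors' processed values, after normalizing 8 arrays together, with a detection p-value under 0.05 as the filter, with trended robust eBayes, with array weights and at an adjusted p under 0.1. An offset of 50 gave 5, adding Abcg5. Testing every probe gave 3, without Xpnpep2 (adjusted p = 0.111), and requiring detection on all 6 arrays gave 3, since Eif2s3y was then not tested. Leaving out each array gave 1 to 3 calls, and all 8 arrays with the Axin2 class as a block gave 1. The class test called 10 probes without background correction and 52 with trended robust eBayes, in place of 24. The 8-array comparison called 0 probes by limma in either of the settings no background correction and offset 50 (0 and 0, in place of 1); its count at an unadjusted p under 0.05 was 200 with the chosen processing.

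The median of the LXR targets was 0.16 when only members detected on all 6 arrays were kept, in place of 0.28, and 0.16 to 0.30 over the alternatives. Sult1c2 and Saa1 reversed over all 8 arrays, with and without the class as a block, to -0.10 from 0.89 and to -0.15 from 0.99, and Uchl1 reversed without VP16 replicate 4 (-0.77 in place of 0.16, with -0.77 to 0.65 over the left-out arrays). Smpdl3a also changed sign over all 8 arrays (-0.11 in place of 0.38), with no unadjusted p under 0.05. The cause was not tested. Of 3711 pairs of a named probe and an alternative, 3568 kept their direction and their side of the threshold, and 114 changed sign with an unadjusted p not under 0.05 in either fit.

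No paired analysis was possible because the replicate numbers run on from 1 to 8 across the groups and none is shared. With 3 arrays a group, a difference must be large beside the spread to pass. The offset and the nearness to background limit dim genes, undetected probes having a mean of 4.56.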

Other observations

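Enteroendocrine markers were lower in VP16LXRa tumors for 12 of 14 tested members, with a median of -0.47, and none separated the groups. The secretin gene Sct had 9.79, 9.24 and 9.31 in VP16LXRa tumors, against 9.66, 10.37 and 9.92 in VP16 tumors. Insl5, the product of colonic L cells, had 11.16, 10.65 and 9.95 in VP16LXRa tumors, against 11.00, 11.29 and 11.11 in VP16 tumors. Without VP16LXRa replicate 7 the median was -0.07. The 3 tested blood genes were higher in VP16LXRa tumors: Hba-a1 by 1.25 (SE 0.71), Hbb-b1 by 1.21 (SE 0.39) and platelet factor 4 (Cxcl4) by 1.07 (SE 0.30). The neutrophil gene Retnlg had 7.56, 5.96 and 8.41 in VP16LXRa tumors, against 5.93, 5.96 and 4.93 in VP16 tumors (1.70, SE 0.62). Of 11 neutrophil markers on the array 9 were not tested, S100a8 and S100a9 among them.

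Raet1b, a stress ligand gene recognised through NKG2D on natural killer cells, had 4.54, 5.86 and 5.80 in VP16LXRa tumors, against 6.73, 6.36 and 7.50 in VP16 tumors (-1.46, SE 0.43). A signal was detected on 2 VP16LXRa and 3 VP16 arrays. Probes with an unadjusted p under 0.01 made up 0.755% of all tested probes. Leaving out the Y chromosome, which has 4 tested probes, the share was highest on chromosome 14 (2.11%, 7 of 331), followed by chromosomes 6 (1.51%) and 17 (1.44%) and the X chromosome (1.41%), and it was 0 on chromosomes 9, 12, 15 and 18.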
